A study of Mus musculus with 6 samples.

Results

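The transcripts described here are those of the Fanconi anemia pathway, of homologous recombination and of the kinases that signal DNA damage, measured in fetal liver (FL) cells that carry or lack Pogz. Members were chosen by gene name from a list of 39 genes. Of these, 37 had a probe set that is annotated to that gene alone, and each was read from its brightest such probe set by mean log2 signal, as were all 18193 genes measured. Xrcc2 and Rbbp8 had no such probe set here. Total RNA came from suspensions of FL cells at E14.5 in 3 Pogz-WT (Pogz+/+) and 3 Pogz-KO (Pogz-/-) samples, all congenic C57BL/6 after more than 10 backcrosses, and each sample was hybridized to its own Affymetrix mouse array. The Pogz-/- embryos are constitutive knockouts. Their allele was made by flanking the 3′ part of Pogz with loxP sites and crossing to β-actin-cre mice, so every cell type of the liver and of the embryo lacks the deleted exons.

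Fanconi proteins act where the strands of DNA are covalently crosslinked and a replication fork stalls. A core complex that includes the ubiquitin ligase FANCL attaches ubiquitin to FANCD2 and FANCI, which then recruit nucleases and hand the broken strand to homologous recombination. There, the ends are resected, BRCA1, PALB2 and BRCA2 prepare the exposed strand to invade an intact copy with help from the XRCC2 and XRCC3 complexes, and the joined strands are later separated by the BLM complex or cut by nucleases. ATM and ATR with their targets CHEK2 and CHEK1 signal the damage. Blood progenitors of the fetal liver divide fast, and loss of Fanconi genes is known for failure of blood formation.

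The promoters of the 6 members that ranked highest by the size of moderated t in the 6-array fit are shown first, except that of Rif1, which had no entry, so that the sequences stand beside the values. Each is the stretch of 250 bases before the annotated start (GRCm38.p6), written 5′ to 3′ on the strand of the gene. Capitals mark CCAAT boxes (CCAAT), GC boxes (GGGCGG) and E2F elements (TTTGGCGC, TTTCGCGC, TTTCCCGC or TTTGCCGC), searched on both strands. No matches shared a base with one another in these windows. GC boxes are bound by SP1, a known partner of POGZ, and E2F and CCAAT sites are common at genes of the S and G2 phases. The windows are Trp53bp1 at chr2:121271408-121271657, minus strand, Xrcc3 at chr12:111813880-111814129, minus strand, Chek2 at chr5:110839733-110839982, plus strand, Fancc at chr13:63431746-63431995, minus strand, and Atr at chr9:95857347-95857596, plus strand.
Trp53bp1: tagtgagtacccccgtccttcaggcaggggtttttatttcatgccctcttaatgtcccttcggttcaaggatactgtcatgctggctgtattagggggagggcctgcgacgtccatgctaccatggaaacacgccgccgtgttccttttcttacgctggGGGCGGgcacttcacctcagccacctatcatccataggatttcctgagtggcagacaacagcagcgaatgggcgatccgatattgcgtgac
Xrcc3: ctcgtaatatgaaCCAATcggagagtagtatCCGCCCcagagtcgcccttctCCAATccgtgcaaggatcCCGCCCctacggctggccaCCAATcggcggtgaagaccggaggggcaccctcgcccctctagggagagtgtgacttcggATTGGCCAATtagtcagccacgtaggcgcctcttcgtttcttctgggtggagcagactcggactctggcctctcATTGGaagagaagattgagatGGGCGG
Chek2: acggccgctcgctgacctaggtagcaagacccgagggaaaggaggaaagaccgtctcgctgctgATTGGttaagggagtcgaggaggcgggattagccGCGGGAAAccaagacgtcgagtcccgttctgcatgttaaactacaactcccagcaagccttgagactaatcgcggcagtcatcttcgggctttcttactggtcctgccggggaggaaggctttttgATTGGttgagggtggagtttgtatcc
Fancc: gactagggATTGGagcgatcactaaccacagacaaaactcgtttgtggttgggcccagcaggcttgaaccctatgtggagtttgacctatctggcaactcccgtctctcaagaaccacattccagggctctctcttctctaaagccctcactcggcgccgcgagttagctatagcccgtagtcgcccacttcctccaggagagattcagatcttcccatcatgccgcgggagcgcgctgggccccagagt
Atr: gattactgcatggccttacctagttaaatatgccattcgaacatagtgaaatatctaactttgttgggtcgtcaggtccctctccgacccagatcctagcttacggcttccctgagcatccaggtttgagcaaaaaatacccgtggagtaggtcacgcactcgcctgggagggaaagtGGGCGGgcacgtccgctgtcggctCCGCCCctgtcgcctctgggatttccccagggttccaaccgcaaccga

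The Xrcc3 window held 6 CCAAT boxes and 3 GC boxes, and that of Chek2 held 2 CCAAT boxes and 1 E2F element. Trp53bp1 held 1 GC box, Atr 2 GC boxes and Fancc 1 CCAAT box. RefSeq windows matched 29 of the 37 members, with 34 windows in all because some genes have 2 starts. A GC box was found in 21 of these 34 windows (61.8%) and in 32.7% of all 32851 windows of the same length. CCAAT boxes stood in 19 windows (55.9%, against 33.8% of all) and E2F elements in 4 (11.8%, against 1.86%), which were those of Bard1, Brca2, Chek2 and Fancg. These shares describe letters in a window and were not tested.

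The arrays were checked before the members were compared. The 2% trimmed mean was 150 in each array, but the Pogz+/+ arrays had median intensities of 35.9 to 54.3 and the Pogz-/- arrays of 29.7 to 31.5. The array of Pogz+/+ replicate 1 stood apart, with a 3′ to 5′ signal ratio of 52.3 for the β-actin control against 3.72 to 6.63 elsewhere, and with r = 0.794 to 0.810 to the other arrays across probe sets where the other pairs reached 0.884 to 0.906. This ratio rises as the labelled RNA gets shorter, and even without replicate 1 it was higher in Pogz+/+ (5.50 and 6.63) than in Pogz-/- (3.72 to 4.09; exact permutation test over 6 arrays, two-sided p = 0.1, the smallest that 3 against 3 allows). The members' log2 fold changes are therefore given both over all 6 arrays and without replicate 1. Some markers of the tissue were bright, with Klf1 at 12.8 to 13.3, Slc4a1 at 13.5 to 15.5 and Afp at 13.6 to 15.4 on the log2 scale. Others on the same erythroid and hepatocyte lists were dim in the probe set read, such as Hba-a1 (2.81 to 6.31), Fgb (5.41 to 6.82) and Hnf4a (5.48 to 7.59). Probe sets that name several genes were not used, so a dim value here need not mean a scarce transcript. The brightest Pogz probe set was 9.17, 9.03 and 8.95 in Pogz+/+ and 9.16, 9.22 and 9.33 in Pogz-/-. Whether its probes lie within the deleted part of the gene was not given, and it is no check of genotype. In RNA from suspensions of FL cells, fewer cells of a type and less RNA per cell cannot be told apart.

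Few repair transcripts passed a test between genotypes, which does not show that their levels were equal. Intervals over 6 arrays could be wide, such as -0.95 to 0.85 for Bard1 and -1.65 to 0.31 for Rad51c. The members whose arrays separated by genotype went both ways. Over all 6 arrays, limma called 0 of the 37 members at an adjusted p under 0.05, where 0.121% of all genes were called. At an unadjusted p under 0.05 there were 6 members by this fit (16.2%, where 17.7% of all genes had one), 3 by limma without trend and robust settings (8.11%, against 13.1%) and 8 by the methods' t-test (21.6%, against 13.3%). Both of these also called 0 members after adjustment. Expressed as log2 of Pogz-/- over Pogz+/+, the members had a median fold change of -0.0039, beside -0.17 for all genes, and 18 members were positive and 19 negative. In 6 members (16.2%) every Pogz-/- array lay above every Pogz+/+ array, as in 10.8% of all genes. In another 6 (16.2%) every Pogz-/- array lay below, as in 16.3% of all genes, so the share that separated downward was that of the background. Without Pogz+/+ replicate 1, Rif1 rose (1 of 37, 2.70%, where 2.41% of all genes rose) and Trp53bp1 and Xrcc3 fell (2 of 37, 5.41%, where 2.07% of all genes fell). Both falls were at least 1.5-fold, as were those of 1.00% of all genes. The median of the members was then -0.034, beside -0.096 for all genes.

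**Figure D1:**
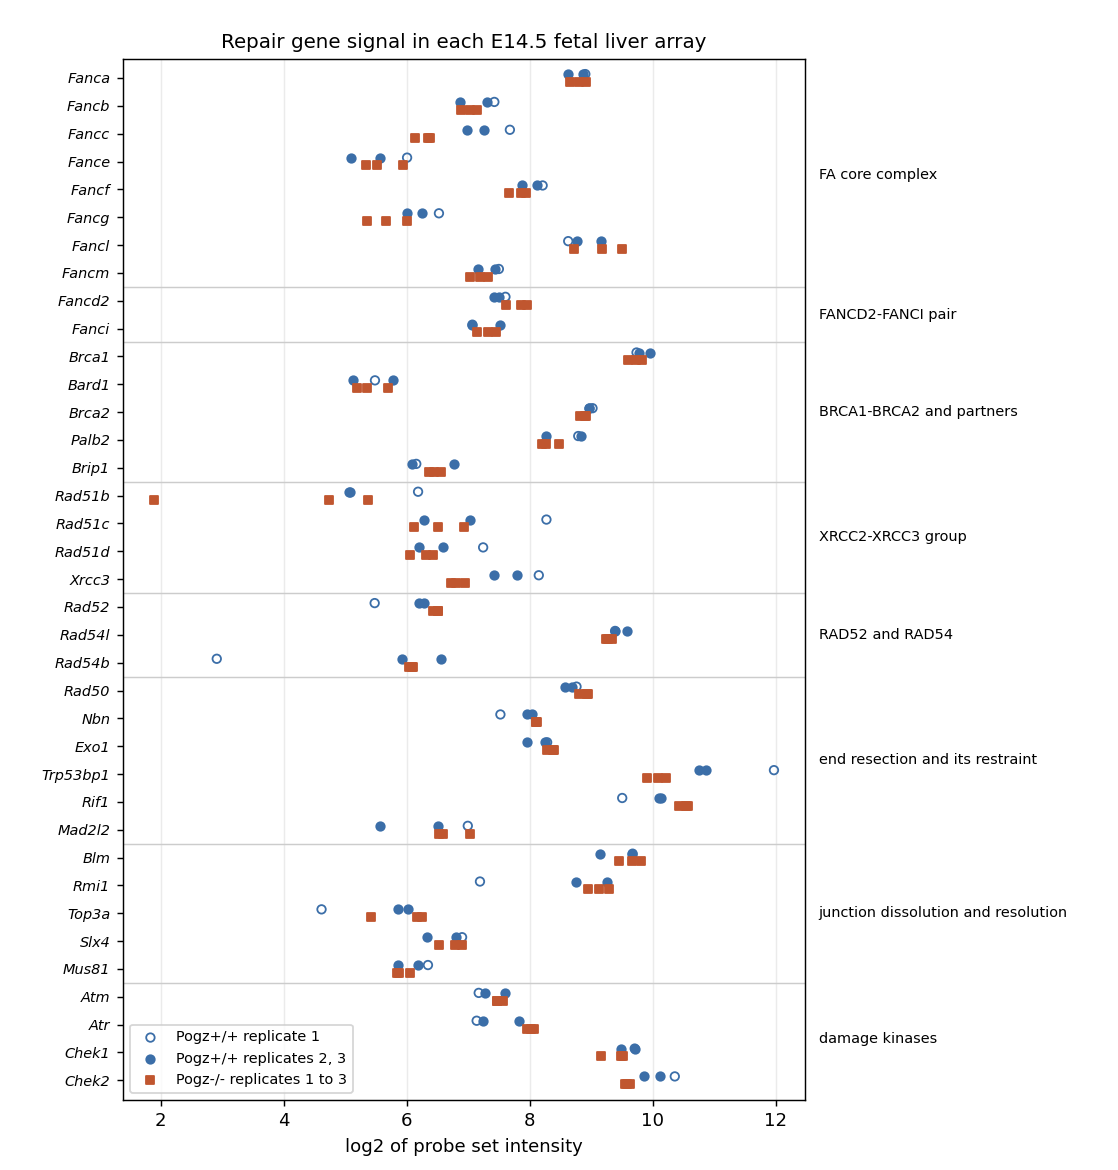
Log2 of probe set intensity of 37 repair genes in each E14.5 array, grouped by role; circles are Pogz+/+ (open for replicate 1) and squares Pogz-/-. Trp53bp1, Xrcc3, Fancc and Chek2 sit lower in every Pogz-/- array and Rif1 and Atr higher, while in Rad54b and Rmi1 replicate 1 alone lies far from the rest.

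The members with the smallest adjusted p without replicate 1, Trp53bp1 and Rif1, both act in the choice of whether a broken end is resected. Trp53bp1 encodes 53BP1, which binds chromatin beside a break and holds back resection. Its log2 signal was 11.97, 10.86 and 10.75 in Pogz+/+ replicates 1, 2 and 3 and 9.91, 10.22 and 10.09 in the Pogz-/- replicates. All Pogz-/- arrays were below all Pogz+/+ arrays, and replicate 1 was the highest by more than 1 log2 unit. The log2 fold change was -1.12 over 6 arrays (SE 0.28, adjusted p = 0.120) and -0.73 without replicate 1 (SE 0.11, adjusted p = 0.00458 from limma), a 1.66-fold fall. RIF1 is an effector that 53BP1 recruits to the break, and its transcript moved the other way. Rif1 was 9.51, 10.10 and 10.14 in Pogz+/+ and 10.43, 10.55 and 10.57 in Pogz-/-, so every Pogz-/- array was higher and replicate 1 was the lowest. It differed by 0.60 over 6 arrays (SE 0.19, adjusted p = 0.175) and rose by 0.40 without replicate 1 (SE 0.096, adjusted p = 0.0394), a 1.32-fold rise. Quantile normalization of these 5 arrays ended that call (0.36, adjusted p = 0.0675). Mad2l2, whose protein REV7 works downstream of RIF1, was 5.57 in Pogz+/+ replicate 2 and 6.51 or more in every other array, so that the groups overlapped (0.36 over 6 arrays, and 0.68 without replicate 1 with an adjusted p of 0.276).

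The other probe sets of these genes did not all follow. Trp53bp1 had 6 probe sets, and the brightest was the one called (adjusted p = 0.00754 over probe sets without replicate 1). Of the 5 dimmer ones, the third brightest was also lower in every Pogz-/- array (-0.67 without replicate 1, adjusted p = 0.209), and the second brightest was 0.050 (adjusted p = 0.927). Rif1 had 4 probe sets. The chosen one was hardly brighter than the next, with mean log2 signals of 10.2 and 10.0, and that next one was slightly lower in every Pogz-/- array (-0.13 without replicate 1, adjusted p = 0.618). The third was -0.70 and the fourth 0.78. Rif1 is thus higher or lower in Pogz-/- according to the probe set read, and its rise is not called over probe sets (adjusted p = 0.0588).

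**Figure D2:**
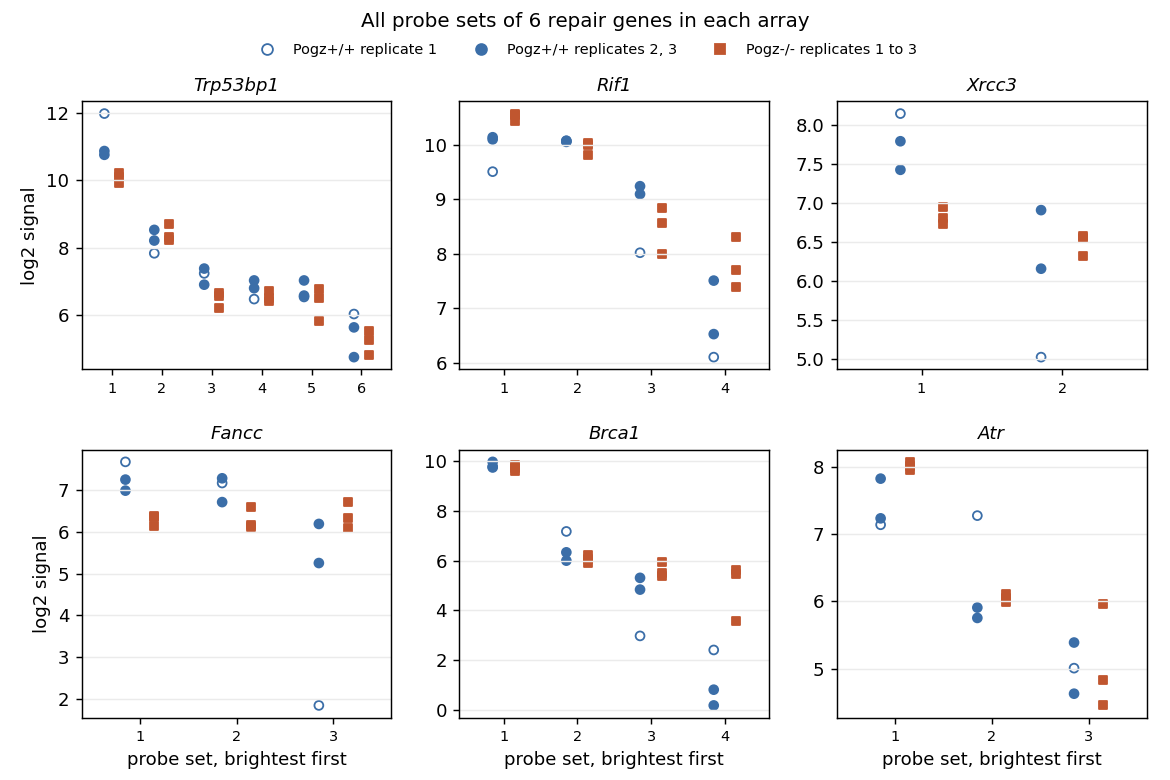
Log2 signal of every probe set of 6 repair genes, ordered by mean signal on the x axis; circles are Pogz+/+ (open for replicate 1) and squares Pogz-/-. In the brightest Trp53bp1 probe set every Pogz-/- array is below every Pogz+/+ array, whereas the 4 Rif1 probe sets go both ways and the dimmest Brca1 probe set is higher in Pogz-/-.

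Of the members that act at the start of resection, none passed the test. Rad50, the structural subunit of the MRE11 complex that first grips a broken end, was 8.76, 8.57 and 8.69 in Pogz+/+ and 8.94, 8.80 and 8.94 in Pogz-/-. Nbn, the subunit that brings ATM to this complex, was 7.53, 8.04 and 7.96 in Pogz+/+ and close to 8.1 in each Pogz-/- array (8.11, 8.10 and 8.10). Both were higher in every Pogz-/- array, by little. Their log2 fold changes over 6 arrays were 0.22 and 0.26, and without replicate 1 they were 0.26 for Rad50 (95% interval -0.013 to 0.53, adjusted p = 0.296) and 0.11 for Nbn (95% interval -0.20 to 0.41, adjusted p = 0.741). Exo1, the exonuclease of long-range resection, was 0.19 over 6 arrays and 0.25 without replicate 1 (adjusted p = 0.408). Mre11a, the nuclease of the same complex, is not one of the 39 members and is named here after its values were seen. It was 0.55 over 6 arrays and 0.65 without replicate 1 (adjusted p = 0.0529).

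Among the genes of the XRCC2 and XRCC3 complexes, which assist early steps of strand invasion, Xrcc3 was the one called. It was 8.15, 7.43 and 7.79 in Pogz+/+ and 6.95, 6.81 and 6.73 in Pogz-/-. Every Pogz-/- array was below every Pogz+/+ array, with or without replicate 1. The log2 fold change was -0.96 over 6 arrays (SE 0.23, adjusted p = 0.115) and -0.78 without replicate 1 (SE 0.20, adjusted p = 0.0486), a 1.72-fold fall. On the same 5 arrays Xrcc3 missed the threshold once values were quantile normalized (-0.80, adjusted p = 0.0515) or centred on the median (-0.51, adjusted p = 0.155). Over probe sets on these arrays Xrcc3 was not called either (limma, adjusted p = 0.0683). Its probe set is of the kind that Affymetrix marks for possible cross-hybridization (suffix _x_at), and its only other probe set, without that suffix, was 5.02, 6.16 and 6.91 in Pogz+/+ and 6.57, 6.55 and 6.32 in Pogz-/- (-0.052 without replicate 1, adjusted p = 0.952). Rad51b was 6.19, 5.07 and 5.07 in Pogz+/+ and 5.37, 1.89 and 4.73 in Pogz-/-. Its difference rests on Pogz-/- replicate 2, and it was -1.44 over 6 arrays (95% interval -3.37 to 0.49) and -1.07 without Pogz+/+ replicate 1. Rad51c and Rad51d, which act in complexes with XRCC3 and XRCC2, were highest in Pogz+/+ replicate 1 (8.27 and 7.24). Their log2 fold changes were -0.67 and -0.42 over 6 arrays, and without that array -0.14 and -0.13 (adjusted p = 0.863 and 0.841).

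In the Fanconi core complex, Fancc stood out and the other 7 subunits did not. Fancc, an adaptor subunit, was 7.68, 6.99 and 7.25 in Pogz+/+ and 6.38, 6.35 and 6.14 in Pogz-/-, with no overlap between genotypes. It was -1.02 over 6 arrays (SE 0.26, adjusted p = 0.122) and -0.83 without replicate 1 (SE 0.23, adjusted p = 0.0651), so it did not pass the test in either fit. Of its 3 probe sets, the second brightest was also lower in every Pogz-/- array (-0.71 without replicate 1), and the dimmest was 0.66. Fancg, a scaffold subunit, was 6.53, 6.25 and 6.00 in Pogz+/+ and 6.01, 5.66 and 5.35 in Pogz-/-, where the lowest Pogz+/+ and the highest Pogz-/- arrays met (-0.58 over 6 arrays, adjusted p = 0.378; -0.45 without replicate 1, adjusted p = 0.494). Fancl, the ubiquitin ligase, was 8.63, 9.16 and 8.78 in Pogz+/+ and 9.50, 8.72 and 9.18 in Pogz-/-, with groups that overlap (0.28 over 6 arrays and 0.17 without replicate 1). The remaining subunits overlapped as well, with log2 fold changes over 6 arrays of -0.0039 for Fanca, -0.18 for the X-linked Fancb, 0.043 for Fance, -0.25 for Fancf and -0.18 for the translocase Fancm. Without replicate 1 these were 0.048, -0.066, 0.27, -0.17 and -0.11. For Fanca, the interval of the difference over 6 arrays was -0.37 to 0.37.

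Of the pair that the core complex ubiquitinates, Fancd2 was higher in every Pogz-/- array by a narrow margin. It was 7.61, 7.42 and 7.50 in Pogz+/+ and 7.86, 7.96 and 7.61 in Pogz-/-, and the nearest arrays of the groups were level at 7.61. Its log2 fold change was 0.30 over 6 arrays (adjusted p = 0.424) and 0.35 without replicate 1 (95% interval -0.022 to 0.72, adjusted p = 0.303). Fanci overlapped between genotypes (0.091 over 6 arrays and 0.019 without replicate 1, adjusted p = 0.977).

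Of the genes of BRCA1, BRCA2 and their partners, which act on resected DNA, none passed the test. Brca1 was 9.74, 9.78 and 9.96 in Pogz+/+ and 9.83, 9.72 and 9.60 in Pogz-/-. Brca2 was 9.02, 8.97 and 8.97 in Pogz+/+ and 8.81, 8.90 and 8.91 in Pogz-/-, lower in every Pogz-/- array by little. Over 6 arrays the 95% intervals of their differences were -0.45 to 0.23 for Brca1 and -0.45 to 0.22 for Brca2, within 1.5-fold in both directions. The differences were -0.11 for both genes, and without replicate 1 they were -0.15 and -0.092. Palb2, the bridge between BRCA1 and BRCA2, was 8.79, 8.84 and 8.27 in Pogz+/+ and 8.20, 8.27 and 8.48 in Pogz-/- and overlapped (-0.32 over 6 arrays, adjusted p = 0.416; -0.24 without replicate 1). Bard1, the partner that completes the BRCA1 ubiquitin ligase, and the helicase gene Brip1 were -0.046 and 0.12 over 6 arrays and -0.034 and 0.028 without replicate 1. The dimmest of the 4 Brca1 probe sets went another way, at 2.42, 0.19 and 0.82 in Pogz+/+ and 3.57, 5.64 and 5.47 in Pogz-/- (4.39 without replicate 1, adjusted p = 0.0546 over probe sets). Its Pogz+/+ values were dim (against 4.91, the median over probe sets), which leaves the size of that difference uncertain. The second dimmest was also higher in every Pogz-/- array (0.55, adjusted p = 0.516).

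For the genes of strand exchange, Rad54l, a motor protein of strand exchange, was 9.39, 9.39 and 9.58 in Pogz+/+ and 9.24, 9.33 and 9.28 in Pogz-/-. It was lower in every Pogz-/- array by little (-0.17 over 6 arrays and -0.20 without replicate 1, adjusted p = 0.388). Rad52, which anneals single strands, was 5.48, 6.20 and 6.29 in Pogz+/+ and 6.51, 6.51 and 6.43 in Pogz-/-. It was higher in every Pogz-/- array, and its difference of 0.50 over 6 arrays came to 0.24 without replicate 1 (adjusted p = 0.628). Its other, dimmer probe set was also higher in every Pogz-/- array. That difference was 0.87 over 6 arrays and 0.89 without replicate 1 (adjusted p = 0.188 over probe sets). Rad54b was 2.91 in Pogz+/+ replicate 1 and 5.93 to 6.56 in the other arrays, and its log2 fold change turned from 0.94 to -0.17 when that array was left out. Probe sets annotated to both Rad54b and Fsbp were not used.

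The genes that take joined molecules apart overlapped between genotypes. Blm, the helicase mutated in Bloom syndrome, was 9.68, 9.15 and 9.67 in Pogz+/+ and 9.67, 9.45 and 9.81 in Pogz-/- (0.14 over 6 arrays and 0.23 without replicate 1). Rmi1, a scaffold of the BLM complex, was 7.19, 9.25 and 8.75 in Pogz+/+ and 9.29, 9.13 and 8.94 in Pogz-/-. Its replicate 1 value stood alone, and the log2 fold change fell from 0.72 over 6 arrays to 0.12 without it (adjusted p = 0.747). Rmi1 had 5 probe sets, and 2 of the dimmer ones were lower in every Pogz-/- array (-0.63 and -0.69 without replicate 1, adjusted p = 0.0542 and 0.139). Top3a, the topoisomerase of that complex, Slx4, the platform for nucleases, and Mus81, a nuclease that it binds, were 0.44, 0.063 and -0.20 over 6 arrays and 0.00062, 0.17 and -0.091 without replicate 1.

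Of the damage kinases, Chek2 and Atr separated by genotype in opposite directions. Chek2, the effector kinase of ATM, was 10.36, 9.86 and 10.12 in Pogz+/+ and 9.55, 9.58 and 9.63 in Pogz-/-. It was -0.53 over 6 arrays (SE 0.17, adjusted p = 0.176) and -0.40 without replicate 1 (SE 0.11, adjusted p = 0.0721). Its call was past the threshold only after quantile normalization of these 5 arrays, where it fell by 0.45 (adjusted p = 0.0491). Atr, the kinase of stalled forks, was 7.14, 7.82 and 7.23 in Pogz+/+ and 8.07, 8.02 and 7.96 in Pogz-/-, higher in every Pogz-/- array. Its log2 fold change was 0.62 over 6 arrays (SE 0.22, adjusted p = 0.208) and 0.49 without replicate 1 (SE 0.19, adjusted p = 0.198). Median centring of the arrays without replicate 1 called Atr, as it did Fancd2 and Rad50, and moved the median of all genes to 0.18. The 2 dimmer Atr probe sets were 0.22 and 0.074 without replicate 1. Atm (0.16 over 6 arrays and 0.068 without replicate 1) and Chek1 (-0.25 and -0.21) overlapped between genotypes.

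**Figure D3:**
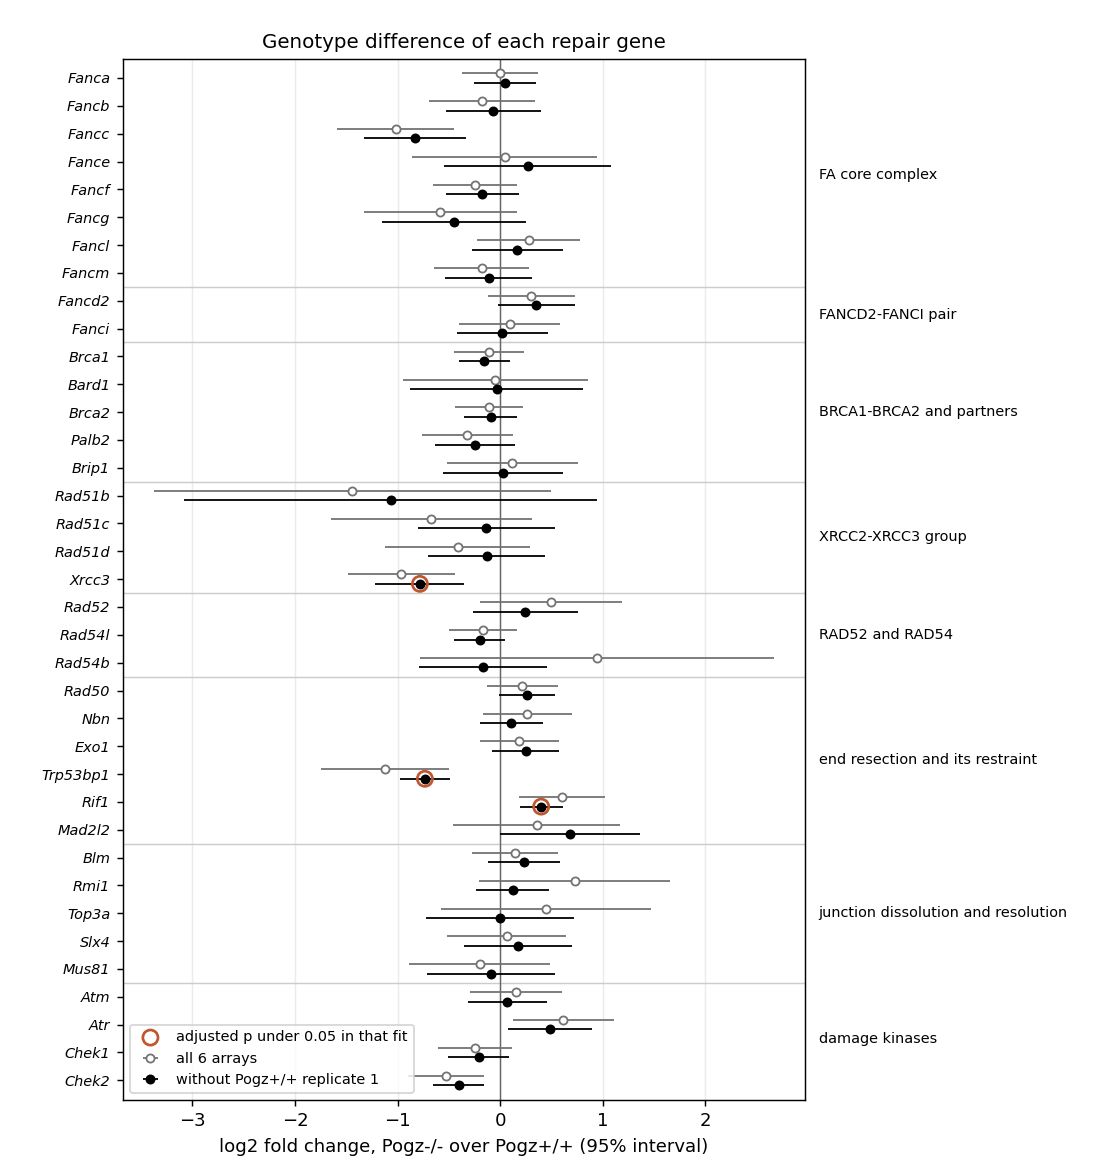
Log2 fold change (Pogz-/- over Pogz+/+) of each repair gene with its 95% interval; open dots are over all 6 arrays, filled dots without Pogz+/+ replicate 1, and rings mark an adjusted p under 0.05. Only Xrcc3, Trp53bp1 and Rif1 are ringed, and most other intervals include 0.

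The calls without replicate 1 rest on 2 Pogz+/+ arrays. When each remaining array was also left out in turn, Trp53bp1 stayed past the threshold without any 1 of the Pogz-/- arrays (adjusted p from 0.00777 to 0.0396), Rif1 without Pogz-/- replicate 1 alone (adjusted p = 0.0285), and Xrcc3 in no case. Without either of the other Pogz+/+ arrays, none of the 37 members was called, in fits where 1 Pogz+/+ array remained and was assumed to vary like the Pogz-/- arrays. The folds there were close to those above, at -0.68 and -0.79 for Trp53bp1 and 0.38 and 0.42 for Rif1, and at -0.97 and -0.60 for Xrcc3. When all probe sets of a gene were averaged, 0 members were called with or without replicate 1. Across 88 probe sets of the 37 members, 1 was called without replicate 1, where 2.67% of all 45037 probe sets were called. Of the 51 probe sets other than the chosen ones, 26 had the sign of the chosen probe set of their gene.

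The rest of the damage response was compared from 4 further lists with 74 measured genes. Over 6 arrays none of these passed the test. Without replicate 1, 2 of the 74 rose and none fell, where 2.41% of all genes rose and 2.07% fell. Swi5, whose protein assists strand exchange, was 9.84, 10.17 and 10.27 in Pogz+/+ and 10.87, 10.84 and 10.95 in Pogz-/- and rose by 0.67 (SE 0.092, adjusted p = 0.00307). Topbp1, the activator of ATR, was 8.85, 10.29 and 10.25 in Pogz+/+ and 10.61, 10.83 and 10.80 in Pogz-/- and rose by 0.48 (SE 0.10, adjusted p = 0.0216). Of 19 other Fanconi genes and 12 end joining genes, none was called. The largest moderated t over 6 arrays was that of Rev1, a translesion polymerase, in the first list (0.95, adjusted p = 0.247). In the second it was that of Parp1, a sensor of strand breaks (-0.45, adjusted p = 0.233). Rev1 was 6.36 in Pogz+/+ replicate 1 and 8.02 or more in the other arrays. Without replicate 1 the differences were 0.39 for Rev1 (adjusted p = 0.148) and -0.29 for Parp1 (adjusted p = 0.173). Medians without replicate 1 were 0.035 for other Fanconi genes, -0.025 for other recombination genes, 0.098 for checkpoint genes and -0.018 for end joining, beside -0.096 for all genes.

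Many repair genes are transcribed most in dividing cells, and lists of cell division were set beside them. Without replicate 1, 6 of 27 S phase genes fell (Mcm4, Mcm7, Rrm2, Prim1, Rfc4 and Ccne1), from -0.64 for the helicase subunit Mcm4 (adjusted p = 0.00501) to -0.31 for Mcm7 (adjusted p = 0.0401), and none rose. Of 19 genes of G2 and mitosis, Cdk1 (-0.55), Plk1 (-0.48) and Cenpf (-0.61) fell and none rose. Of all genes, 2.07% fell and 2.41% rose in this fit. The list medians were -0.18 for S phase and -0.17 for G2 and mitosis, and over 6 arrays they were -0.090 and -0.054 with 0 calls. In every Pogz-/- array the median level of the S phase list was 10.3 to 10.4, against 10.6 to 10.7 in Pogz+/+, while that of the 37 members was 7.47 to 7.57 against 7.43 to 7.53. Markers of the cells in the liver moved as well. Of 9 erythroid genes 4 fell without replicate 1, and of 10 granulocyte genes 4 rose, with list medians of -0.39 and 0.27. Of 8 hepatocyte genes 1 fell, Afp, with a list median of -0.42. No gene was called among 9 macrophage genes (-0.082), 7 B cell genes (-0.65), 6 megakaryocyte genes (-0.13) and 8 genes of endothelium and stroma (-0.44). The part of cell makeup, of cell division and of RNA length in the values of Trp53bp1, Xrcc3 and Rif1 was not tested.

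**Figure D4:**
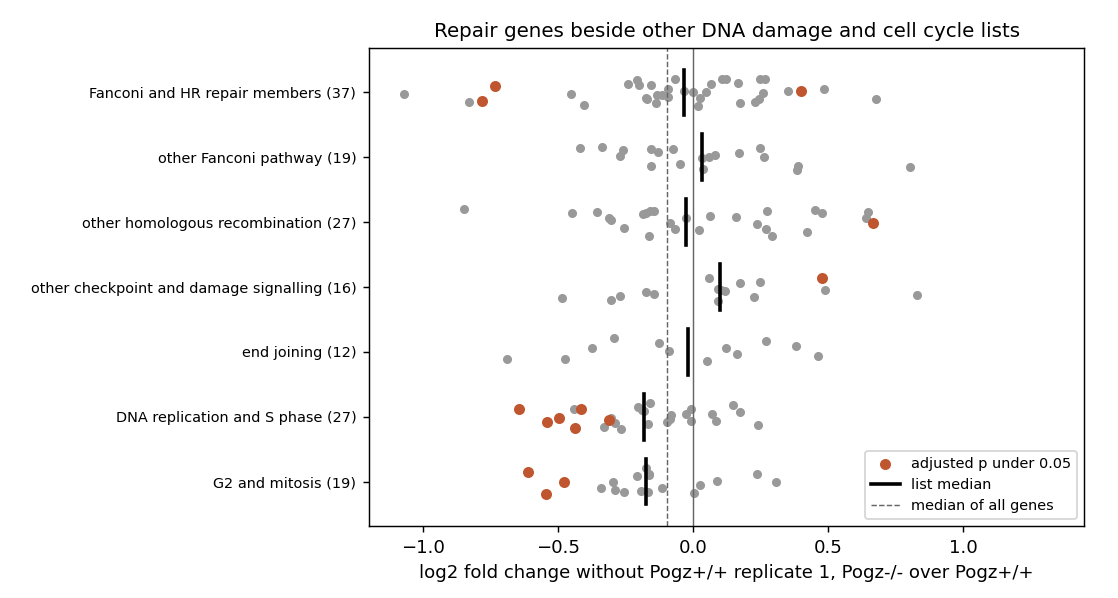
Log2 fold change without Pogz+/+ replicate 1 of each gene (dots) in the repair list and in 6 other lists, with list medians (bars), called genes in orange and the median of all genes dashed; numbers in parentheses are genes measured. Called repair genes are Rif1 above 0 and Trp53bp1 and Xrcc3 below 0, and those of the S phase and mitosis lists are all below 0. The Rif1 and Xrcc3 calls are not made over probe sets (limma, adjusted p = 0.0588 and 0.0683) or after quantile normalization.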

How the data were processed

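For 3 Pogz+/+ and 3 Pogz-/- FL samples, 100 ng of RNA was labelled with a 3′ IVT kit and each was hybridized to 1 Affymetrix mouse genome array. The deposited values are linear intensity values; the authors used Affymetrix Expression Console (version and algorithm not given in the sources used here), scaled to a common 2% trimmed mean. The number of arrays limits the precision. Of 45101 probe sets, 64 controls were left out. Of the other 45037, 34945 name 1 gene, 932 several and 9160 none here. Each of 18193 genes was read from its probe set with the highest mean log2 intensity, with no pseudocount. All columns were matched to samples by the sample identifiers, and the sample titles gave the genotype and replicate number.

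Genotype was tested across all genes (R 4.3.3, limma 3.58.1; linear fit and eBayes with trend and robust options, because the spread of these values depends on signal; two-sided; Benjamini-Hochberg adjustment over all genes or all probe sets; threshold 0.05). Errors are SE from this fit, and intervals are 95%. The methods state 3 samples for each genotype, so all 6 arrays form the test, and Pogz+/+ replicate 1 was left out as an alternative. Where values are given in every array, the member had arrays that did not overlap between genotypes, was among the 10 with the largest moderated t, was called without replicate 1, or was the brightest of its role; other members are given by fold change. Alternatives were plain eBayes, quantile normalization, median centring, log2 of the intensity plus 16, brighter probe sets only, array quality weights, a replicate block, the mean of all probe sets of a gene, each array left out, the methods' t-test and a 1.5-fold minimum. Leaving out a further array beside replicate 1, and the offset, mean and 1.5-fold alternatives without replicate 1, were added after the data were seen. Calculations were checked on simulated data with independent noise and no difference in RNA length between genotypes. That check concerns the code and not the calls made here. Members and lists were chosen with earlier results of these data known. The labels call the samples biological replicates without saying whether each is 1 embryo, and p-values measure the spread between these samples. An item withheld here is not reported.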

Additional observations from a re-analysis of the deposited data

How the results depend on the processing

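Over 6 arrays no alternative that kept all arrays called a member, except array quality weights, which gave replicate 1 of Pogz+/+ the lowest weight (0.21) and called 3 (Trp53bp1, Xrcc3 and Fancc, all lower). Leaving out each array in turn gave 0 to 3 members and 0 to 815 of all genes, where the main count of all genes was 22. Without Pogz+/+ replicate 1 the members called numbered 3 with the offset, 2 after quantile normalization (Trp53bp1 and Chek2), 5 after median centring (Trp53bp1 lower, and Fancd2, Rad50, Rif1 and Atr higher), 2 at 1.5-fold, and 0 with plain eBayes and with the mean of all probe sets. Leaving out a further array beside it gave 0 to 2 members and 101 to 796 genes (2, 1 and 1 members and 796, 394 and 183 genes without Pogz-/- replicates 1, 2 and 3; 0 members and 155 and 101 genes without Pogz+/+ replicates 2 and 3). Counts of all genes were 702 with array weights, 5 with the mean of probe sets, 4 after median centring, 9 after quantile normalization, 1 with the methods' t-test and 0 with plain eBayes, and without replicate 1 they were 497 at 1.5-fold, 800, 185, 1944, 0 and 679 with the offset, the mean, median centring, plain eBayes and quantile normalization. Brighter probe sets alone gave 15. Other damage response genes called numbered 0 to 2 with each array left out, and without replicate 1 they were 2 with the offset, 1 with the mean, 16 after median centring, 2 after quantile normalization and 0 to 3 with a further array left out (0 and 1 without Pogz+/+ replicates 2 and 3, and 3, 1 and 1 without Pogz-/- replicates 1, 2 and 3).

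Median centring moved the median of all genes from -0.17 to 0.29 over 6 arrays and from -0.10 to 0.18 without replicate 1, and that of the members to 0.46 and 0.24. It subtracts each array's own median. The median of the members was 0.061 after quantile normalization and 0.057 with the mean of probe sets, and ranged from -0.122 to 0.037 with each array left out. Of 474 values of 19 named members under alternatives, 22 changed sign and 20 passed the threshold. No member was called over 6 arrays, so no call could be lost among them. After median centring, which moved the median of all genes across 0 as well, the sign turned for Brca1 (0.35), Brca2 (0.35), Palb2 (0.14) and Rad54l (0.29), and without replicate 1 for the same 4 genes (0.12, 0.18, 0.030 and 0.072). With the mean of all probe sets it turned for Fancc (0.057), Fancl (-0.33), Brca1 (1.12), Rad50 (-0.29) and Rmi1 (-0.34), and without replicate 1 for Fancl (-0.25), Brca1 (1.17) and Rmi1 (-0.32). With 1 array left out, or a further array beside replicate 1, values crossed 0 in Fancl (-0.027 to 0.486), Palb2 (-0.527 to 0.043), Blm (-0.032 to 0.492) and Rmi1 (-0.13 to 1.15). The replicate block called 0 members and 65 genes; same-numbered arrays did not deviate together (r = -0.013 to 0.0041), so numbers were not taken as pairs. The cause of these differences was not tested. Dim probe sets limit the values of Rad51b, Rad54b and the dimmest Brca1 probe set.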
